A study of Pseudozyma hubeiensis with 12 samples.

Results

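The genes described here are the loci of the yeast Pseudozyma hubeiensis strain BOT-O that are annotated as making, shaping or breaking down the chitin and glucan of the cell wall. They were taken by a search of the deposited product names for chitin, cell wall and the beta-glucan and glucan synthase terms, leaving out chitin deacetylases, and 39 of 6689 loci matched. They comprise 9 chitin synthases, 5 regulators of chitin synthase, 4 chitinases, 5 glucan synthases, 8 loci named after KRE6, 5 glucan remodelling enzymes and 3 other loci with a wall annotation. Product names rest on similarity to known proteins, and copies carry a suffix such as kre6_2 or chs3_5. RNA came from cultures of this 1 strain in YNB, a defined yeast medium, with glucose or xylose as the sugar and ammonium sulfate added so that carbon to nitrogen stood at 80 g/g. Cultures on each sugar were taken at time point 1, while growing exponentially, and at time point 2, while starved of nitrogen, with biological replicates A, B and C in each of the 4 groups, or 12 libraries. Time point and growth phase coincide, so starvation and culture age cannot be told apart.

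The fungal wall is a mesh of chitin, a polymer of N-acetylglucosamine, and of beta- and alpha-linked glucans, polymers of glucose. Chitin synthases and the Fks1 glucan synthase sit in the plasma membrane and extrude the chains, drawing on UDP-N-acetylglucosamine and UDP-glucose. Kre6-type proteins are needed for the branched beta-1,6-glucan that ties wall proteins to the mesh, as known from Saccharomyces cerevisiae. Chitinases and glucanases open the mesh during growth and cell separation, and a signalling cascade ending in the kinase Slt2 watches over wall integrity.

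Libraries held 15130232 to 32374467 counts, with the starved glucose libraries the shallowest at 15130232 to 16894818. Levels are given in CPM (counts per 1000000, scaled by TMM) for replicates A, B and C in that order, and changes as log2 fold changes ± SE with n = 3 libraries in each group. Calls were made where the adjusted p lay under 0.05 (edgeR quasi-likelihood test, with Benjamini-Hochberg adjustment over all 5805 loci tested). Gene lengths were not used, so levels are compared between samples and not between genes. In bulk RNA, a lower level in every cell and fewer cells that express a gene cannot be told apart. Of the 39 genes, 37 had enough counts to be tested. The chitin-binding type-4 domain locus PHBOTO_005698 had 0 counts in all 12 libraries, and the alpha-1,3-glucan synthase locus PHBOTO_003186 had 0 to 17 counts in a library. Reads were assigned by the authors, and near-identical copies may share reads.

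In nitrogen starvation some wall genes rose and others fell on both sugars. The alpha-1,3-glucan synthase PHBOTO_003185, the KRE6 copies kre6_2, kre6_5 and kre6_6, the chitin synthase PHBOTO_002721, the glucosidase exg1_4 and the chitinase PHBOTO_002496 rose at least 2-fold on glucose and on xylose. The glucosidase exg1_3, the trafficking factor chs5, the glucanosyltransferase gas1 and the maintenance protein emw1 fell at least 2-fold on both. On glucose 12 of the 37 tested genes rose, or 32.4% (40.1% of all loci tested did), and 14 fell, or 37.8% (41.1% of all). On xylose 15 rose, or 40.5% (40.6% of all), and 9 fell, or 24.3% (40.6% of all). These shares lie near or below those of all loci. Changes of at least 2-fold covered 8 rises (22.5% of all loci) and 8 falls (22.1%) on glucose, and 9 rises (23.5%) and 4 falls (20.2%) on xylose. The median change over the wall genes was -0.11 on glucose and 0.19 on xylose, against -0.02 and 0.00 over all loci tested. No gene was called in opposite directions on the 2 sugars: 10 rose on both, 9 fell on both, 6 were called on neither, 5 rose on xylose alone, 2 rose on glucose alone and 5 fell on glucose alone. These combined counts were not taken over all loci, so they are not read as particular to wall genes. A call on 1 sugar alone is no test of a difference, which is given further on by the interaction term.

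**Figure D1:**
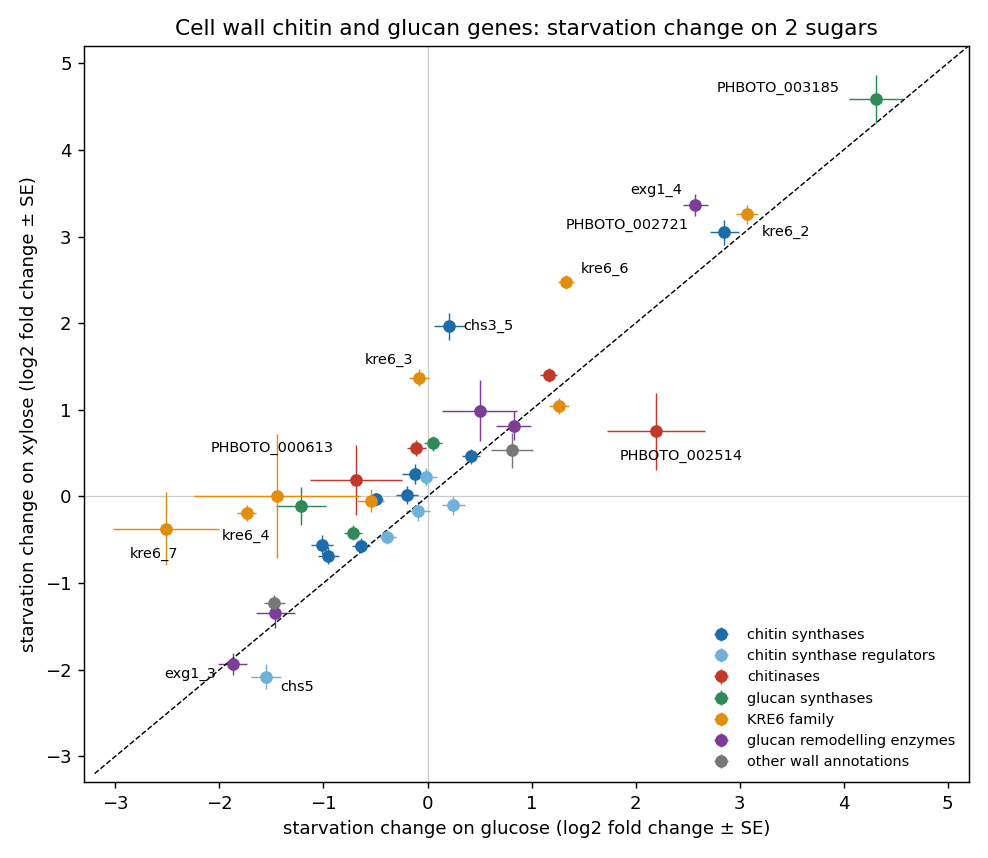
Starvation change (starved minus exponential, log2 fold change ± SE) of the 37 tested wall genes on glucose (x axis) and on xylose (y axis), coloured by family, with the line of equal change dashed. Most points lie above the line, among them kre6_3, kre6_4, kre6_6 and chs3_5, while PHBOTO_003185 is the highest on both axes at 4.31 and 4.59.

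Among the chitin synthases, which polymerise N-acetylglucosamine, 1 gene rose strongly in starvation on both sugars. PHBOTO_002721 stood at 13.3, 16.3 and 14.1 CPM in exponential glucose, 124, 99.9 and 92.5 in starved glucose, 13.1, 12.4 and 12.8 in exponential xylose, and 86.1, 119 and 111 in starved xylose. All starved libraries were far above all exponential ones, a rise of 2.85 ± 0.14 (adjusted p = 1.50e-11) on glucose and 3.05 ± 0.14 (adjusted p = 7.61e-12) on xylose, and the starved groups overlapped between sugars. The copy chs3_4 stood at 147, 148 and 143 CPM in exponential glucose, 200.2, 180.2 and 204 in starved glucose, 143, 144 and 148 in exponential xylose, and 195, 179 and 225 in starved xylose. It rose modestly, by 0.41 ± 0.09 (adjusted p = 3.50e-04) on glucose and by 0.47 ± 0.09 (adjusted p = 1.13e-04) on xylose, with no overlap between phases on either sugar.

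The copy chs3_5 was low in exponential xylose. It stood at 802, 765 and 666 CPM in exponential glucose, 635, 1005 and 941 in starved glucose, 296, 292 and 335 in exponential xylose, and 1394, 1010.2 and 1202 in starved xylose. In exponential growth all xylose libraries were below all glucose libraries (-1.27 ± 0.15, adjusted p = 1.43e-05), and on xylose starvation raised the gene by 1.97 ± 0.16 (adjusted p = 6.35e-09). On glucose the phases overlapped and the change was 0.21 ± 0.15 (adjusted p = 0.211), although it was called without starved glucose A (adjusted p = 0.00909). The starvation change was larger on xylose by 1.76 ± 0.22 (adjusted p = 1.52e-05), the largest such difference among the 9 chitin synthases.

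The remaining chitin synthases fell in starvation or were not called, and most stood higher on xylose once starved. The gene chs1 stood at 266, 268 and 266 CPM in exponential glucose, 195, 189 and 184 in starved glucose, 310.4, 319 and 322 in exponential xylose, and 328, 299 and 302 in starved xylose. It fell by 0.50 ± 0.07 (adjusted p = 5.98e-06) on glucose, was not called on xylose (-0.03 ± 0.07, adjusted p = 0.659), and the difference between the sugars was 0.46 ± 0.10 (adjusted p = 0.00176). The gene chs2, whose Saccharomyces cerevisiae namesake builds the primary septum, stood at 99.3, 110.3 and 113 CPM in exponential glucose, 58.9, 46.7 and 60.6 in starved glucose, 116, 107 and 113 in exponential xylose, and 72.6, 70.8 and 65.2 in starved xylose. Starved libraries were below exponential ones on both sugars, changes of -0.95 ± 0.10 (adjusted p = 1.92e-07) on glucose and -0.69 ± 0.10 (adjusted p = 7.78e-06) on xylose. Its copy chs2_2 stood at 52.8, 58.8 and 60.2 CPM in exponential glucose, 28.4, 25 and 31.9 in starved glucose, 66, 67.5 and 69.8 in exponential xylose, and 41, 48.3 and 48.8 in starved xylose. It fell by 1.01 ± 0.11 (adjusted p = 2.34e-07) on glucose and fell by 0.56 ± 0.10 (adjusted p = 1.29e-04) on xylose. The interaction for chs2_2 was 0.46 ± 0.15 (adjusted p = 0.0248), and this call was lost in 7 of the 12 fits that left out 1 library (adjusted p of 0.0507 to 0.0624), those without exponential glucose B or C, exponential xylose A or B, starved glucose B or starved xylose B or C.

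Genes named after CHS3, which in Saccharomyces cerevisiae makes most of the lateral wall chitin, included genes that fell, rose and were not called. The gene chs3 stood at 232, 225 and 220.4 CPM in exponential glucose, 140.3, 141 and 154 in starved glucose, 256, 285 and 260.2 in exponential xylose, and 169, 164 and 207 in starved xylose. It fell by 0.64 ± 0.09 (adjusted p = 7.03e-06) on glucose and fell by 0.57 ± 0.09 (adjusted p = 2.41e-05) on xylose, with no overlap between phases. The copy chs3_2 stood at 173, 157 and 155 CPM in exponential glucose, 134, 132 and 157 in starved glucose, 179, 214 and 189.8 in exponential xylose, and 171, 220.5 and 196 in starved xylose, and phases overlapped on both sugars, with changes of -0.20 ± 0.10 (adjusted p = 0.0919) on glucose and 0.01 ± 0.10 (adjusted p = 0.918) on xylose. On glucose chs3_2 was called without starved glucose C (adjusted p = 0.0272). The copy chs3_3 stood at 85.5, 82.7 and 80.7 CPM in exponential glucose, 62, 80.9 and 85.4 in starved glucose, 79.9, 88.3 and 85.1 in exponential xylose, and 88.2, 117 and 98 in starved xylose. Its phases overlapped on both sugars, with changes of -0.12 ± 0.12 (adjusted p = 0.339) and 0.26 ± 0.12 (adjusted p = 0.0512), and the change on xylose was called in 4 of the 12 fits that left out 1 library (adjusted p of 0.0173 to 0.0477), those without starved glucose A, B or C or starved xylose A.

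**Figure D2:**
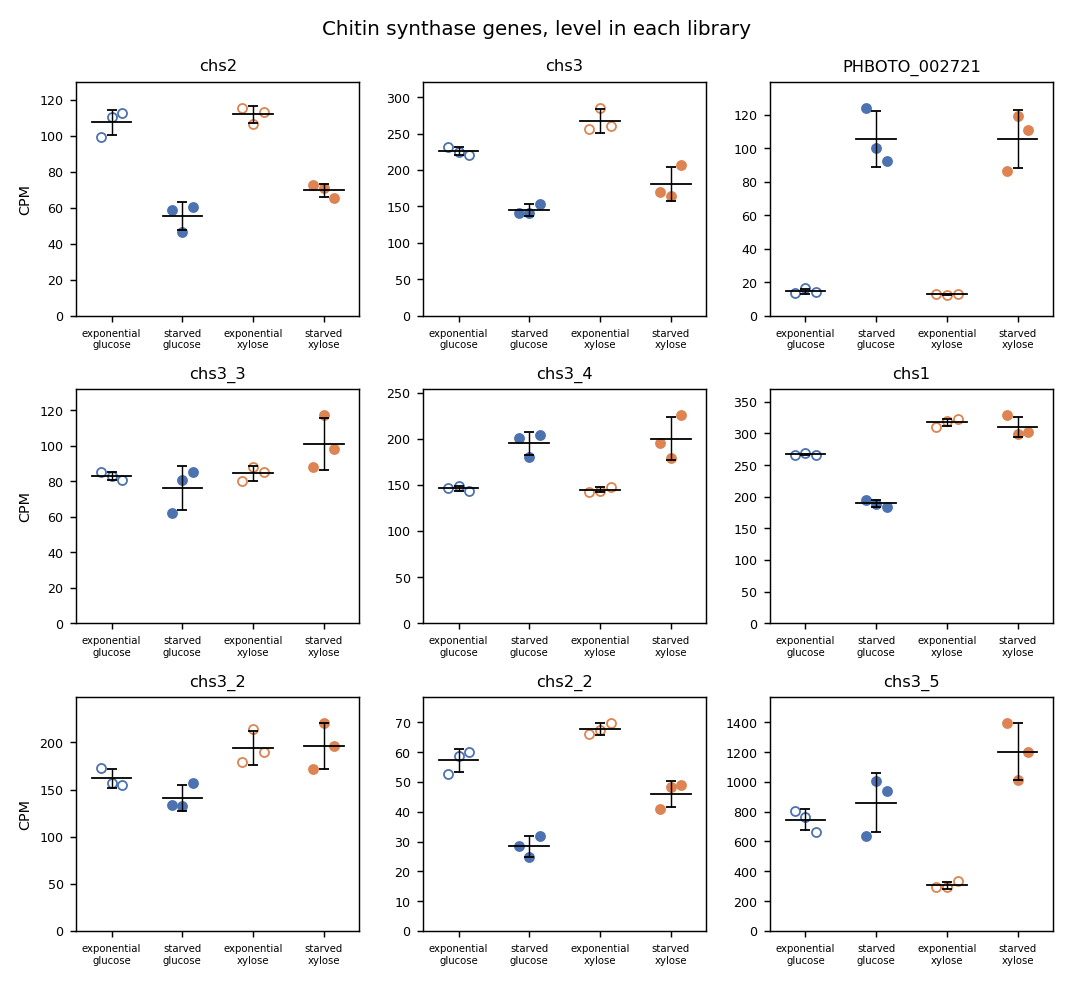
Level (CPM, linear axis from 0) of the 9 chitin synthase genes in each of 12 libraries by group. Points are libraries (open for exponential growth, filled for starvation), bars are the mean ± SD of 3; PHBOTO_002721 is high in both starved groups, and chs3_5 is lowest in exponential xylose and highest in starved xylose.

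Of the 5 genes that deliver or activate chitin synthase, chs5 changed most. The gene chs5, which in Saccharomyces cerevisiae helps carry Chs3 from the Golgi to the surface, stood at 76.6, 80 and 87.3 CPM in exponential glucose, 36.4, 24.7 and 22 in starved glucose, 87.5, 93 and 91.6 in exponential xylose, and 19.2, 22.3 and 22.7 in starved xylose. Starved libraries were below exponential ones throughout, changes of -1.55 ± 0.14 (adjusted p = 4.37e-08) on glucose and -2.08 ± 0.15 (adjusted p = 1.33e-09) on xylose. The interaction was not called (-0.53 ± 0.20, adjusted p = 0.0508), but it was without starved glucose B (adjusted p = 0.0342) or without starved glucose C (adjusted p = 0.00802). The export chaperone chs7, which releases Chs3 from the endoplasmic reticulum, fell by 0.39 ± 0.08 on glucose and fell by 0.47 ± 0.08 on xylose. Over the 12 libraries the activators skt5, skt5_2 and skt5_3 spanned 93.4 to 141, 28.9 to 40.4 and 54.5 to 78.6 CPM. In the fit of all libraries the first 2 were called in no comparison. For skt5 the change on xylose, 0.23 ± 0.10 (adjusted p = 0.0559), was called without exponential xylose B (adjusted p = 0.0399), without starved glucose A (adjusted p = 0.0259) or without starved glucose C (adjusted p = 0.0231). Its difference between the starved groups, 0.25 ± 0.11 (adjusted p = 0.0649), was called without starved glucose C (adjusted p = 0.00539), as was its interaction, 0.24 ± 0.15 (adjusted p = 0.21), without starved glucose C (adjusted p = 0.031). For skt5_3 the rise on glucose, 0.25 ± 0.11 (adjusted p = 0.0473), was lost in 9 of the 12 fits that left out 1 library (adjusted p of 0.0548 to 0.141), those without exponential glucose A, B or C, exponential xylose A, B or C, starved glucose B or C or starved xylose C. Its change on xylose, -0.10 ± 0.11 (adjusted p = 0.395), and its difference between the starved groups, -0.16 ± 0.11 (adjusted p = 0.244), were not called but were without starved xylose B (adjusted p = 0.0437 and 0.0324). Its interaction, -0.35 ± 0.15 (adjusted p = 0.086), was called without starved glucose A (adjusted p = 0.0499) or without starved xylose B (adjusted p = 0.0131).

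Chitinases rose or were not called, and none fell. PHBOTO_002496 stood at 1739, 1867 and 1815 CPM in exponential glucose, 4090.4, 3994 and 4056 in starved glucose, 1816, 1737 and 1789 in exponential xylose, and 4870.2, 4670.1 and 4577 in starved xylose. Every starved library was above every exponential one, a rise of 1.16 ± 0.08 (adjusted p = 7.98e-10) on glucose and 1.40 ± 0.08 (adjusted p = 8.24e-11) on xylose. The sporulation-type chitinase cts2 stood at 859, 966 and 893 CPM in exponential glucose, 956, 792 and 774 in starved glucose, 918, 873 and 889 in exponential xylose, and 1345, 1328 and 1280.1 in starved xylose. It rose on xylose by 0.56 ± 0.09 (adjusted p = 3.20e-05), while on glucose the phases overlapped (-0.11 ± 0.09, adjusted p = 0.287), and the change was called without starved glucose A (adjusted p = 0.0306). The difference between the sugars was 0.67 ± 0.13 (adjusted p = 9.04e-04). The weak chitinase PHBOTO_002514, with 13 to 49 counts in a library, stood at 0.566, 0.382 and 0.633 CPM in exponential glucose, 2.88, 2.96 and 1.32 in starved glucose, 0.686, 0.707 and 1.12 in exponential xylose, and 0.974, 2.05 and 1.18 in starved xylose. It rose on glucose by 2.20 ± 0.47 (adjusted p = 4.17e-04) and was not called on xylose (0.75 ± 0.44, adjusted p = 0.129). Its interaction, -1.44, was not called, but it was without starved glucose C (adjusted p = 0.0258) or without starved xylose B (adjusted p = 0.0466). The copy cts2_2, with 8 to 161 counts in a library, ranged from 0.483 to 4.22 CPM within starved glucose alone and was called on neither sugar. Its change on glucose, -0.69 ± 0.44 (adjusted p = 0.164), was called without starved glucose A (adjusted p = 0.00448).

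Among the glucan synthases, the beta-1,3-glucan enzyme fell on both sugars and 1 alpha-1,3-glucan synthase rose on both. The gene fks1, the membrane enzyme of beta-1,3-glucan, stood at 449, 455 and 417 CPM in exponential glucose, 289.8, 259 and 256 in starved glucose, 518, 528 and 535 in exponential xylose, and 416, 354 and 414 in starved xylose. It fell by 0.71 ± 0.09 (adjusted p = 8.98e-07) on glucose and fell by 0.42 ± 0.08 (adjusted p = 2.70e-04) on xylose, with no overlap. The alpha-1,3-glucan synthase PHBOTO_003185 stood at 1.96, 1.29 and 0.925 CPM in exponential glucose, 32.2, 27.8 and 24.9 in starved glucose, 1.03, 0.739 and 0.59 in exponential xylose, and 15.7, 24.2 and 17.4 in starved xylose. This was the largest rise of all wall genes on both sugars, 4.31 ± 0.26 (adjusted p = 1.96e-10) on glucose and 4.59 ± 0.28 (adjusted p = 1.82e-10) on xylose. Its exponential levels rest on 122 counts over the 3 glucose libraries and 74 over the 3 xylose libraries, with 18 in the lowest library. The adjacent locus number PHBOTO_003186 has the same annotation and stood at 0.2, 0.147 and 0 CPM in exponential glucose, 1.09, 0 and 0.315 in starved glucose, 0.0623, 0.0643 and 0 in exponential xylose, and 0, 0.091 and 0.284 in starved xylose. These levels rest on 11, 22, 4 and 9 counts a group in that order, and the gene was not tested.

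The other alpha-1,3-glucan synthases depended on the sugar. PHBOTO_000613, annotated as Ags1, stood at 13.4, 15.2 and 11.5 CPM in exponential glucose, 3.96, 5.2 and 8.12 in starved glucose, 19.8, 20.1 and 21.7 in exponential xylose, and 14.2, 17.6 and 24.9 in starved xylose. It fell by 1.22 ± 0.24 (adjusted p = 2.13e-04) on glucose and overlapped between phases on xylose (-0.11 ± 0.22, adjusted p = 0.639), a difference of 1.10 ± 0.32 (adjusted p = 0.014). PHBOTO_001734 stood at 275, 284 and 284 CPM in exponential glucose, 295, 301 and 276 in starved glucose, 263, 270.4 and 227 in exponential xylose, and 364, 426 and 371 in starved xylose. It rose on xylose by 0.61 ± 0.09 (adjusted p = 7.05e-06) and was not called on glucose (0.05 ± 0.09, adjusted p = 0.596), a difference of 0.56 ± 0.12 (adjusted p = 0.00224).

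In the KRE6 family 3 loci rose in starvation on both sugars. The locus kre6_2 stood at 59, 62.7 and 58.8 CPM in exponential glucose, 469, 558 and 490.1 in starved glucose, 85.9, 77.1 and 91.1 in exponential xylose, and 909, 719.9 and 800.2 in starved xylose. It rose on glucose by 3.07 ± 0.11 (adjusted p = 2.26e-13) and on xylose by 3.26 ± 0.11 (adjusted p = 1.58e-13), and xylose libraries were above glucose libraries in both phases. The locus kre6_6 stood at 87.8, 86.5 and 83 CPM in exponential glucose, 208, 221 and 219 in starved glucose, 84.6, 71.6 and 76.1 in exponential xylose, and 438, 408 and 444 in starved xylose. It rose on both sugars, by 1.33 ± 0.08 (adjusted p = 1.47e-10) on glucose and 2.47 ± 0.08 (adjusted p = 1.48e-13) on xylose, and more on xylose by 1.14 ± 0.11 (adjusted p = 1.37e-06). The locus kre6_5 stood at 161, 153 and 160.4 CPM in exponential glucose, 397, 329 and 409 in starved glucose, 206, 214 and 243 in exponential xylose, and 489, 441 and 435 in starved xylose. It rose by 1.26 ± 0.10 (adjusted p = 3.44e-09) on glucose and 1.04 ± 0.10 (adjusted p = 3.45e-08) on xylose, and the interaction was not called (-0.22 ± 0.13, adjusted p = 0.211).

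For kre6_3 and kre6_4, starvation changed 1 sugar and was not called on the other. The locus kre6_3 stood at 306, 314 and 299 CPM in exponential glucose, 238, 319 and 311 in starved glucose, 350.1, 342 and 345 in exponential xylose, and 914, 854 and 910.1 in starved xylose. It rose on xylose by 1.37 ± 0.10 (adjusted p = 1.85e-09) and overlapped between phases on glucose (-0.08 ± 0.10, adjusted p = 0.454), a difference of 1.45 ± 0.14 (adjusted p = 1.19e-06). The locus kre6_4 stood at 502, 514 and 503 CPM in exponential glucose, 152, 139 and 165 in starved glucose, 670.3, 589 and 675 in exponential xylose, and 615, 553 and 528 in starved xylose. It fell by 1.74 ± 0.09 (adjusted p = 3.74e-11) on glucose and changed on xylose by -0.19 ± 0.09 (adjusted p = 0.0595), which was called without exponential xylose B (adjusted p = 0.0275), without starved glucose C (adjusted p = 0.0448) or without starved xylose A (adjusted p = 0.0115). The difference between the sugars was 1.55 ± 0.13 (adjusted p = 2.37e-07). Starved glucose overlapped exponential glucose for kre6_3 and was the lowest of the 4 groups for kre6_4.

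The other KRE6 loci were moderate or weak. The gene kre6 itself stood at 70.1, 65.8 and 63.8 CPM in exponential glucose, 38.6, 40.2 and 57.9 in starved glucose, 81.3, 86 and 86.2 in exponential xylose, and 89.9, 71.3 and 84.1 in starved xylose. It fell by 0.55 ± 0.13 (adjusted p = 0.00123) on glucose and was not called on xylose (-0.05 ± 0.13, adjusted p = 0.735). Its interaction, 0.50 ± 0.18 (adjusted p = 0.0439), was lost in 10 of the 12 fits that left out 1 library (adjusted p of 0.0579 to 0.168), those without exponential glucose A, B or C, exponential xylose A, B or C, starved glucose A or B or starved xylose A or C. The weak locus kre6_7, with 3 to 99 counts in a library, stood at 2.66, 2.91 and 1.56 CPM in exponential glucose, 0.192, 0.181 and 0.882 in starved glucose, 1.81, 1.54 and 2 in exponential xylose, and 1.16, 1.27 and 1.66 in starved xylose. It fell by 2.51 ± 0.51 (adjusted p = 2.65e-04) on glucose and was not called on xylose (-0.37 ± 0.42, adjusted p = 0.423), with an interaction of 2.14 ± 0.67 (adjusted p = 0.0199) that was lost without exponential glucose A (adjusted p = 0.0515), without exponential glucose B (adjusted p = 0.0592) or without starved xylose C (adjusted p = 0.0513). At 0 to 17 counts a library, kre6_8 was called in no comparison.

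**Figure D3:**
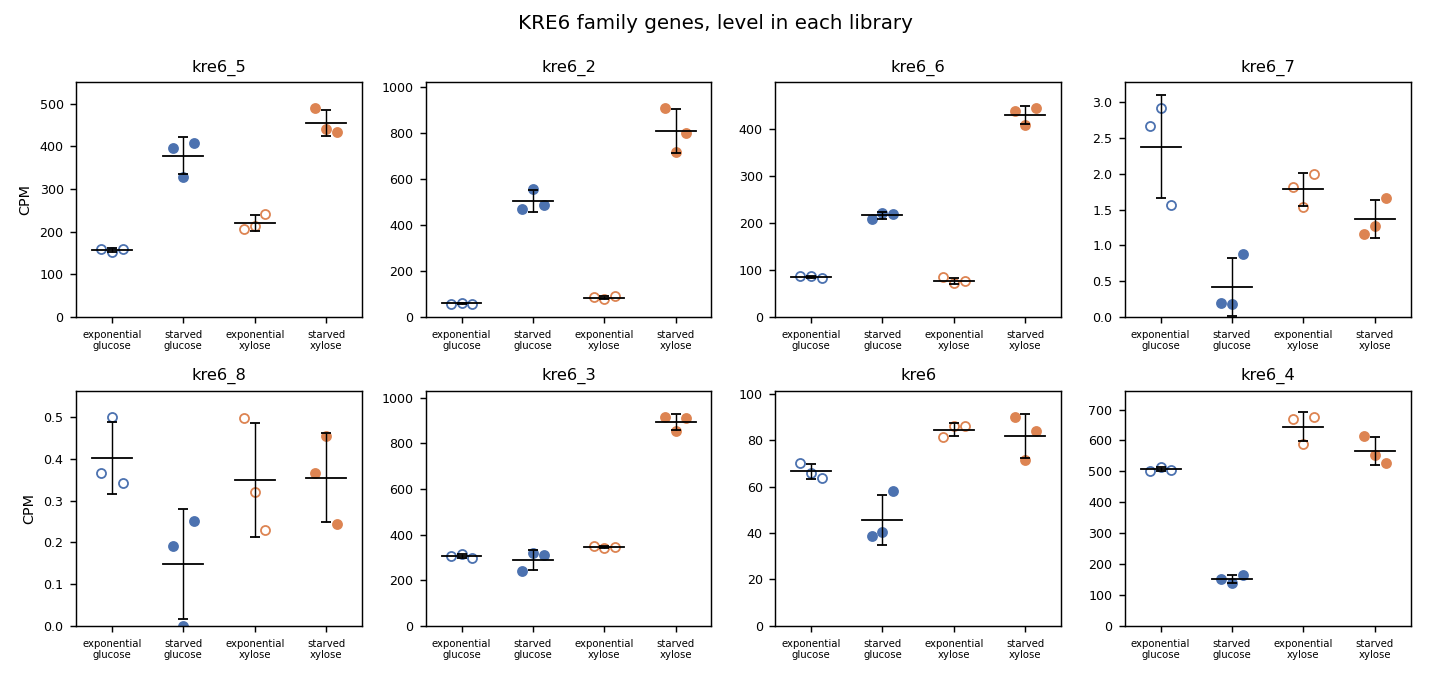
Level (CPM, linear axis from 0) of the 8 KRE6 family genes in each of 12 libraries by group, with points for libraries (open for exponential growth, filled for starvation) and bars for the mean ± SD of 3. In starved xylose kre6_2, kre6_3 and kre6_6 stand above the other 3 groups, and kre6_4 is lowest in starved glucose.

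Enzymes that cut or rejoin beta-1,3-glucan included genes that rose on both sugars and genes that fell on both. The glucosidase exg1_4 stood at 25.9, 27.7 and 23.5 CPM in exponential glucose, 149, 131 and 180.0 in starved glucose, 17, 18.4 and 19.3 in exponential xylose, and 203, 166 and 193 in starved xylose. It rose by 2.57 ± 0.12 (adjusted p = 8.37e-12) on glucose and by 3.36 ± 0.13 (adjusted p = 5.74e-13) on xylose, and more on xylose by 0.79 ± 0.16 (adjusted p = 0.00161). The copy exg1_3 stood at 47.1, 46.6 and 48.8 CPM in exponential glucose, 9.27, 14.5 and 15 in starved glucose, 80.4, 79.3 and 76.8 in exponential xylose, and 21.2, 20.8 and 19.9 in starved xylose. It fell by 1.87 ± 0.14 (adjusted p = 2.12e-09) on glucose and fell by 1.93 ± 0.13 (adjusted p = 8.62e-10) on xylose, and xylose libraries were above glucose libraries in both phases. The gene gas1, which lengthens beta-1,3-glucan chains, stood at 48.4, 51 and 54.4 CPM in exponential glucose, 21.9, 11.3 and 22.7 in starved glucose, 99, 102 and 100.2 in exponential xylose, and 32.9, 43.7 and 41.5 in starved xylose. It fell by 1.46 ± 0.18 (adjusted p = 1.80e-06) on glucose and fell by 1.34 ± 0.18 (adjusted p = 2.65e-06) on xylose. The glucosidase exg1_2 rose by 0.83 ± 0.17 on glucose and by 0.82 ± 0.17 on xylose. The weak copy exg1 rose on xylose by 0.99 ± 0.35 (adjusted p = 0.0163), a call that was lost without exponential xylose A (adjusted p = 0.0599) or without starved xylose B (adjusted p = 0.0682).

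Among the other annotations, emw1, essential for wall maintenance in Saccharomyces cerevisiae, stood at 169, 164 and 161 CPM in exponential glucose, 50.5, 63.1 and 64.4 in starved glucose, 145, 138 and 127 in exponential xylose, and 55.8, 53.9 and 64.1 in starved xylose. It fell by 1.47 ± 0.10 (adjusted p = 1.05e-09) on glucose and fell by 1.24 ± 0.10 (adjusted p = 8.67e-09) on xylose, with no overlap between phases. The cell wall protein PHBOTO_004184 rose by 0.81 ± 0.20 (adjusted p = 0.00164) on glucose. Its rise on xylose, 0.53 ± 0.20 (adjusted p = 0.0243), was lost in 4 of the 12 fits that left out 1 library (adjusted p of 0.0584 to 0.109), those without exponential xylose A or B or starved xylose A or C.

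**Figure D4:**
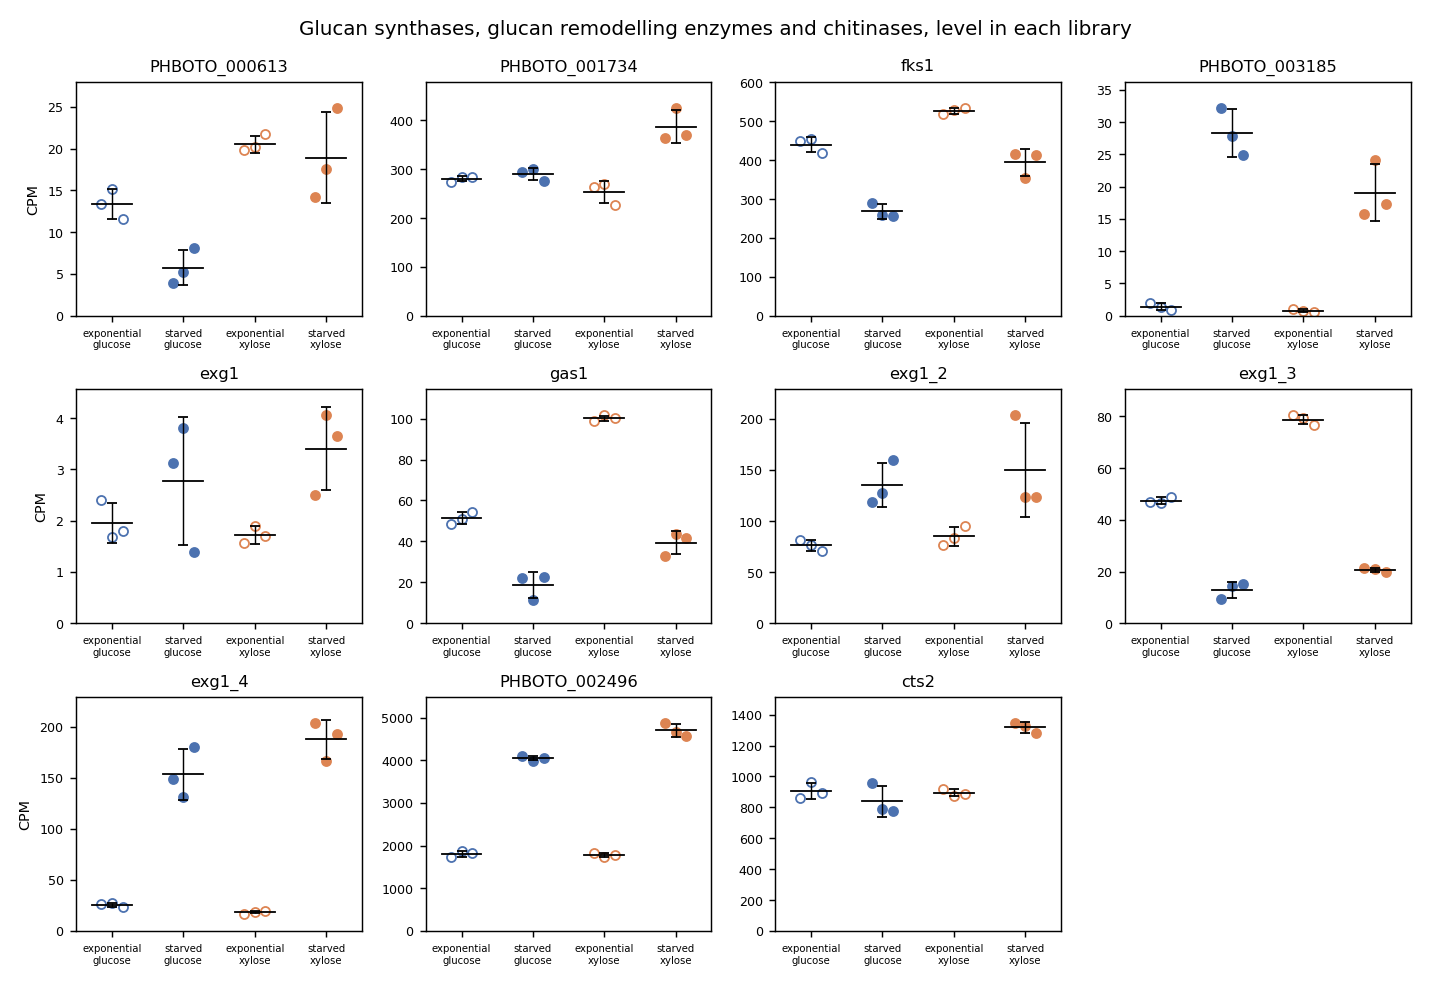
Level (CPM, linear axis from 0) in each of 12 libraries of 4 glucan synthases, 5 glucan remodelling enzymes and the chitinases PHBOTO_002496 and cts2, with points for libraries (open for exponential growth, filled for starvation) and bars for the mean ± SD of 3. PHBOTO_003185, exg1_4 and PHBOTO_002496 are high in both starved groups, and fks1, gas1 and exg1_3 are low in them.

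Between the starved groups, most wall genes stood higher on xylose than on glucose. Of the 37 genes, 23 were called higher on xylose, or 62.2%, where 23.0% of all loci tested were, and 1 was called lower, where 19.2% of all were. The median difference was 0.41 over the wall genes and 0.00 over all loci tested. Xylose libraries were all above the glucose libraries for 22 of the 37 genes (23.8% of all loci) and all below for 2 (20.6% of all loci). Chitin synthases accounted for 7 of the 23 and the KRE6 family for 7, with 3 each from the chitinases, glucan synthases and remodelling enzymes and none of the 5 regulators. Without the KRE6 family, a choice made after seeing the data, 16 of these calls were left by construction.

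Among the calls kept whichever of the 12 libraries was left out, 14 in all, the largest differences were in the KRE6 family and an alpha-1,3-glucan synthase. On the log2 scale the difference was 1.90 ± 0.09 (adjusted p = 2.11e-10) for kre6_4, 1.62 ± 0.10 for kre6_3, 1.72 ± 0.24 for PHBOTO_000613, 1.09 ± 0.19 for gas1 and 0.99 ± 0.08 for kre6_6. Smaller differences were called for kre6 (0.84 ± 0.13), chs1 (0.71 ± 0.07), chs2_2 (0.70 ± 0.11), kre6_2 (0.68 ± 0.10), exg1_3 (0.67 ± 0.14), cts2 (0.65 ± 0.09), fks1 (0.56 ± 0.09), chs3_2 (0.47 ± 0.10) and PHBOTO_001734 (0.41 ± 0.09). PHBOTO_002721 and chs3_4, the chitin synthases that rose on both sugars, did not differ past the threshold (0.00 ± 0.13 and 0.04 ± 0.09).

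The other 9 calls of higher levels on starved xylose each rested on certain libraries. The call for chs2 (0.33 ± 0.10) was lost without starved glucose B (adjusted p = 0.0776) or without starved xylose A (adjusted p = 0.0717), that for chs3 (0.31 ± 0.09) without starved xylose C (adjusted p = 0.0728), and that for chs3_3 (0.41 ± 0.12) without starved xylose B (adjusted p = 0.0679). For chs3_5 (0.48 ± 0.15) it was lost without starved glucose A (adjusted p = 0.0666) or without starved xylose A (adjusted p = 0.121), and for kre6_5 (0.27 ± 0.09) without starved glucose B (adjusted p = 0.171) or without starved xylose A (adjusted p = 0.176). For kre6_7 (1.71 ± 0.54) it was lost without starved glucose A (adjusted p = 0.0572), without starved glucose B (adjusted p = 0.0621) or without starved xylose C (adjusted p = 0.0615). The call for PHBOTO_002496 (0.22 ± 0.08) was lost in 8 of the 12 fits that left out 1 library (adjusted p of 0.0514 to 0.1), those without exponential glucose B or C, exponential xylose A or C, starved glucose A, B or C or starved xylose A. That for cts2_2 (1.23 ± 0.44) was lost in 8 of the 12 fits that left out 1 library (adjusted p of 0.0504 to 0.121), those without exponential glucose A or B, exponential xylose A or B, starved glucose B or C or starved xylose A or B. That for exg1_4 (0.29 ± 0.11) was lost in 10 of the 12 fits that left out 1 library (adjusted p of 0.0575 to 0.225), those without exponential glucose A, B or C, exponential xylose A, B or C, starved glucose A or B or starved xylose A or C. The 1 lower call, PHBOTO_003185 (-0.57 ± 0.21), was lost in 6 of the 12 fits that left out 1 library (adjusted p of 0.0553 to 0.133), those without exponential glucose B, exponential xylose B, starved glucose A or B or starved xylose A or C.

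Fitting the 2 starved groups alone, with 4 residual degrees of freedom, called 14 of 36 wall genes higher on xylose where 15.9% of all loci were, and 1 lower where 12.5% were. All 14 were also called in the fit of 4 groups. The starved glucose libraries were also the shallowest, and the part of depth in this difference was not tested.

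**Figure D5:**
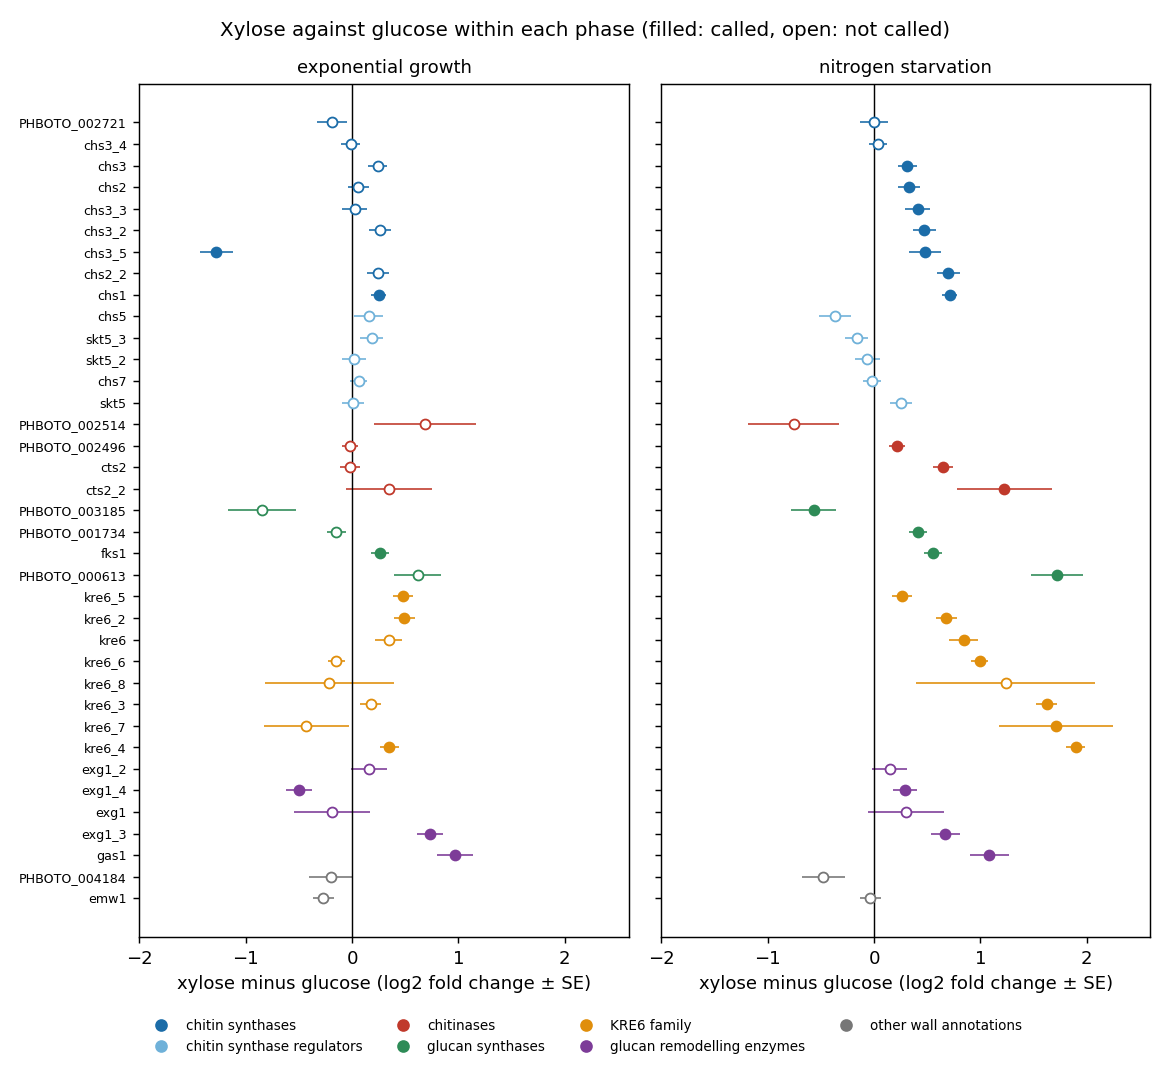
Difference between xylose and glucose (log2 fold change ± SE, x axis) for the 37 tested wall genes (y axis) in exponential growth (left) and in nitrogen starvation (right), coloured by family, filled where called at an adjusted p under 0.05. In starvation 23 filled points lie to the right of 0 and 1 to the left, against 7 and 2 in exponential growth.

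In exponential growth 7 wall genes were higher on xylose (9.94% of all loci were) and 2 lower (10.8% of all), with a median of 0.06 against -0.03 over all loci. The higher genes were gas1 (0.97 ± 0.17, adjusted p = 6.39e-04), exg1_3 (0.73 ± 0.12, adjusted p = 4.25e-04), kre6_2 (0.49 ± 0.10), kre6_5 (0.48 ± 0.09), kre6_4 (0.35 ± 0.09), fks1 (0.26 ± 0.08) and chs1 (0.25 ± 0.07). The call for kre6_4 was lost without exponential xylose C (adjusted p = 0.0545), that for chs1 in 5 of the 12 fits that left out 1 library (adjusted p of 0.0552 to 0.0687), those without exponential glucose A, B or C or exponential xylose B or C, and that for fks1 in 6 of the 12 fits that left out 1 library (adjusted p of 0.0763 to 0.152), those without exponential glucose A, B or C or exponential xylose A, B or C. Lower on xylose were chs3_5, as above, and exg1_4 (-0.50 ± 0.12, adjusted p = 0.00726). PHBOTO_000613 (0.62 ± 0.22, adjusted p = 0.0573) was not called, but was in 4 of the 12 fits that left out 1 library (adjusted p of 0.0202 to 0.0386). Likewise chs3 and kre6, higher on xylose, and emw1, lower, were called in 2 such fits each. In 1 fit each, chs3_2 was called higher and PHBOTO_003185 lower. Fitting the 2 exponential groups alone called 15 of 37 higher and 4 lower, where 22.4% and 20.5% of all loci were called. With all 4 groups fitted, more wall genes were called in starvation than in exponential growth. Fewer were when each pair of groups was fitted alone (14 higher and 1 lower of 36 in starvation). The shares of all loci called moved the same way. In starvation 23.0% were higher and 19.2% lower with all 4 groups, and 15.9% and 12.5% with the pair alone. The order of these counts is therefore not read as a result about wall genes.

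The interaction term asked whether the starvation change itself differed between sugars. It was called in 12 of 37 wall genes, each with the change more positive on xylose (21.7% of all loci), and in 0 genes with it more negative (16.5% of all loci). By edgeR at an unadjusted p under 0.05, 3 genes were more negative on xylose, and DESeq2 called 1. The 12 were 5 of the KRE6 family, 3 chitin synthases, 2 alpha-1,3-glucan synthases, cts2 and exg1_4. This comparison uses the same libraries as those above and is not separate evidence.

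As a share of all counts, wall genes took 0.770 ± 0.0145% in exponential glucose, 0.954 ± 0.0246% in starved glucose, 0.778 ± 0.0169% in exponential xylose and 1.21 ± 0.0203% in starved xylose (mean ± SD, n = 3). The chitinase PHBOTO_002496 alone took 0.191 ± 0.00605%, 0.400 ± 0.0199%, 0.188 ± 0.00522% and 0.428 ± 0.0134% in the same order of groups. Without this gene, a choice made after seeing the data, the share of the other wall genes was 0.579 ± 0.0128% in exponential glucose and 0.554 ± 0.00484% in starved glucose. It was 0.590 ± 0.0125% in exponential xylose and 0.785 ± 0.0140% in starved xylose, with every starved library above every exponential one. All these shares are of raw counts, without the TMM factors used for CPM. Those factors were 1.06, 1.05 and 1.06 in exponential glucose and 1.03, 0.98 and 0.953 in starved glucose. The difference on glucose without PHBOTO_002496 is smaller than this difference in scaling, so it is not read as a fall. Starved xylose was above starved glucose without overlap, both with PHBOTO_002496 and without it. The KRE6 family took 0.157 ± 0.00106% in starved glucose and 0.294 ± 0.0103% in starved xylose, and the chitinases 0.484 ± 0.0336% and 0.548 ± 0.0180%. The share of chitin synthases was 0.191 ± 0.00854% in exponential glucose, 0.177 ± 0.0122% in starved glucose, 0.159 ± 0.00533% in exponential xylose and 0.219 ± 0.00818% in starved xylose. On glucose the phases overlapped in this share (0.182% in exponential glucose C, 0.186% in starved glucose B), so the lower mean is not read as a fall. From exponential to starved glucose the mean share went from 0.0498 to 0.0379% for the regulators, from 0.0777 to 0.0588% for the glucan synthases and from 0.0183 to 0.00732% for the other wall annotations. On xylose these went from 0.0526 to 0.0352%, from 0.0845 to 0.0745% and from 0.0152 to 0.00624%. The TMM factors were 1.05, 1.05 and 1.07 in exponential xylose and 0.885, 0.941 and 0.902 in starved xylose. For the glucan synthases the difference on xylose is smaller than this difference in scaling, so it is not read as a fall.

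The counts for related gene lists are read against all loci tested, of which 40.1% rose and 41.1% fell in starvation on glucose, and 40.6% rose and 40.6% fell on xylose. With 5 to 14 loci in a list, none is called particular from its count. The genes that supply the sugar nucleotides held contrasts between sugars. Of 7 loci around UDP-N-acetylglucosamine, the substrate of chitin synthase, 1 rose and 3 fell on glucose, and 3 rose and 3 fell on xylose. The aminotransferase gfa1, the entry step of the pathway, went from 1533 ± 77.4 to 1099.9 ± 13.6 CPM on glucose and from 1151 ± 85.1 to 1720.2 ± 63 CPM on xylose (mean ± SD). It fell by 0.48 ± 0.08 on glucose and rose by 0.58 ± 0.08 on xylose, with an interaction of 1.06 ± 0.12 (adjusted p = 5.76e-06). The pyrophosphorylase qri1, the last step, fell by 1.91 ± 0.08 on glucose and fell by 0.70 ± 0.08 on xylose, with an interaction of 1.21 ± 0.11 (adjusted p = 5.93e-07). The glucosamine-6-phosphate isomerase PHBOTO_001773 rose on xylose by 1.31 ± 0.17 and gna1_2 rose on both, by 0.98 ± 0.15 on glucose and by 1.20 ± 0.15 on xylose. Of 5 loci around UDP-glucose, 1 rose and 3 fell on glucose and 2 rose and 3 fell on xylose. The uridylyltransferase ugp1, which makes UDP-glucose, fell by 0.55 ± 0.08 on glucose and fell by 1.03 ± 0.08 on xylose, the phosphoglucomutase pgm2 fell by 0.70 ± 0.08 on glucose and fell by 0.74 ± 0.08 on xylose, and the glucokinase glk1 fell by 1.06 ± 0.09 on glucose and fell by 0.80 ± 0.09 on xylose. The glucokinase regulator PHBOTO_001774, which the search term for glucokinase also caught, rose by 1.29 ± 0.07 on glucose and by 1.48 ± 0.07 on xylose.

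In the wall integrity cascade the 2 loci named after the kinase SLT2 differed. Of 14 tested loci of the cascade, 6 rose and 4 fell on glucose, and 7 rose and 4 fell on xylose (over all loci, 40.1% and 41.1%, then 40.6% and 40.6%). The kinase slt2 went from 513 ± 35.7 to 176 ± 43.3 CPM on glucose and from 156 ± 36 to 862 ± 115 CPM on xylose. It fell by 1.54 ± 0.17 on glucose and rose by 2.47 ± 0.18 on xylose, with an interaction of 4.01 ± 0.25 (adjusted p = 1.12e-08). The copy slt2_2 rose on both, by 2.41 ± 0.09 on glucose and 1.67 ± 0.09 on xylose, and the upstream kinase copy bck1_2 rose by 1.73 ± 0.09 on glucose and by 1.78 ± 0.09 on xylose. The GTPase copy rho1_2 fell by 2.21 ± 0.13 on glucose and fell by 1.15 ± 0.13 on xylose.

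Of 12 tested loci for delivery of chitin synthase and cell polarity, 3 rose and 5 fell on glucose, and 3 rose and 3 fell on xylose. The polarity GTPase cdc42 rose by 0.59 ± 0.08 on glucose and by 0.47 ± 0.08 on xylose. The palmitoyltransferase pfa4, which modifies Chs3 in Saccharomyces cerevisiae, fell by 0.69 ± 0.14 on glucose and fell by 1.06 ± 0.14 on xylose, and the kinase copy cbk1_3 fell by 1.20 ± 0.10 on glucose and fell by 0.74 ± 0.10 on xylose. Of 6 further tested glucan assembly loci, 2 rose and 2 fell on glucose and 3 rose and 2 fell on xylose. The probable chitin-glucan crosslinker utr2 fell by 3.94 ± 0.15 on glucose and fell by 2.85 ± 0.14 on xylose. The ROT1 copy rot1_4, named after a protein of the endoplasmic reticulum needed for beta-1,6-glucan, fell by 1.13 ± 0.08 on glucose and rose by 0.54 ± 0.08 on xylose, with an interaction of 1.67 ± 0.12 (adjusted p = 4.62e-08). The gene rot1 itself stood higher in starvation on both sugars, without overlap between phases. It went from 111 ± 1.9 to 207 ± 15.8 CPM on glucose and from 119 ± 4.83 to 295 ± 7.19 CPM on xylose (mean ± SD).

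Of 6 other hydrolases, 3 rose and 3 fell on glucose, and 4 rose and 1 fell on xylose. The N-acetylhexosaminidases PHBOTO_000133 and PHBOTO_003885, which release single sugars from chitin fragments, rose by 3.44 ± 0.08 and 2.69 ± 0.14 on glucose and by 1.89 ± 0.08 and 1.83 ± 0.13 on xylose. Their interactions were negative, -1.55 ± 0.11 and -0.86 ± 0.18, opposite in sign to every called wall gene. The exo-beta-1,3-glucanase PHBOTO_003325 went from 1729 ± 63.8 to 571 ± 56.3 CPM on glucose and from 1745 ± 19.7 to 1348 ± 172 CPM on xylose, changes of -1.60 ± 0.10 and -0.37 ± 0.10. Of 6 tested chitin deacetylases, which the search left out, 2 rose and 3 fell on glucose and 5 rose and 1 fell on xylose. Between the starved groups, loci higher and lower on xylose numbered 3 and 0 of 7 for UDP-N-acetylglucosamine supply, 2 and 1 of 5 for UDP-glucose supply, and 3 and 1 of 14 for the integrity cascade. They numbered 5 and 0 of 12 for delivery of chitin synthase, 4 and 1 of 6 for glucan assembly, 3 and 2 of 6 for other hydrolases and 4 and 1 of 6 for chitin deacetylases. Over all loci tested 23.0% were higher and 19.2% lower, and here too no list is called particular from its count.

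In the authors' deposited table, 12 wall genes were higher and 14 lower in starvation on glucose, and 15 and 9 on xylose, the same calls as here for the 37 genes. For xylose against glucose the authors' deposited table held 8 higher and 4 lower in exponential growth and 22 higher and 3 lower in starvation, with the same call as here for 34 of 37 genes in each.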

How the data were processed

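Poly-A selected, strand-marked libraries were made from 12 samples, per the labels' protocols. The submitters' processing notes name HISAT2 2.2.1, Trim Galore 0.6.1, cutadapt 2.3, bcl2fastq 2.20.0.422, CASAVA and DESeq2. For the read counter, its use of strand and the genome build, a name or setting is not given in the sources used here.

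The deposited table gives raw counts per locus, per the file headers, and these were the values tested. Its signal columns are deposited normalized counts, which were not used. The authors' log2 fold changes and p-values, and the score columns of standard errors and test statistics, also stand in the deposited table, and only its fold changes and adjusted p-values were used, to count calls.

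All 12 libraries were fitted in edgeR 4.0.16 (R 4.3.3) with 1 coefficient a group, TMM scaling, filterByExpr (minimum count 10, minimum total 15) and quasi-likelihood F tests (8 residual degrees of freedom), with Benjamini-Hochberg adjustment across 5805 loci. Each SE was taken from the change and its F value. Scripts were tested on simulated data. Alternatives were DESeq2 1.42.0, its size factors, other filters, a replicate block, fits of 2 groups, and leaving out each library. The members and lists were chosen with earlier results of these data known. Values in every library are given for synthases and for genes with a called change of at least 2-fold in starvation or interaction, by rule, and for cts2 and kre6 by choice after values were seen. Of 7 related lists, called genes with the largest change and the most abundant gene are named. Replicates differed by more than counting noise (chi-square over its degrees of freedom, 11.5 to 97.0).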

Additional observations from a re-analysis of the deposited data

Results flagged for a closer look

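The starvation change of 12 wall genes differed between the sugars by the interaction term of the edgeR fit over all loci, and in each the change was more positive on xylose. The difference (log2, xylose minus glucose) was 2.14 for kre6_7, 1.76 for chs3_5, 1.55 for kre6_4, 1.45 for kre6_3, 1.14 for kre6_6 and 1.10 for PHBOTO_000613. It was 0.79 for exg1_4, 0.67 for cts2, 0.56 for PHBOTO_001734, 0.50 for kre6, 0.46 for chs1 and 0.46 for chs2_2. The widest of the 12, kre6_7, had 3 to 99 counts in a library.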

How the results depend on the processing

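Counts of called wall genes moved by more than 1.5 times under a few alternatives, and no called gene changed sign under any of those run. Fitting only the 2 groups compared gave 15 genes higher and 4 lower on xylose in exponential growth (from 7 and 2), and 14 higher on xylose in starvation (from 23). DESeq2 in place of edgeR gave 4 lower in exponential growth, 3 lower in starvation and 1 negative interaction (from 2, 1 and 0), DESeq2 size factors gave 2 lower in starvation and 1 negative interaction, and a filter of at least 1 CPM in 3 libraries gave 1 negative interaction. Asking for a 2-fold change left 8 falls on glucose, 9 rises and 4 falls on xylose, 0 higher and 1 lower on xylose in exponential growth, 6 higher and 0 lower on xylose in starvation, and 6 interactions. Without the KRE6 family (chosen after seeing the data) 7 of 12 interactions were left by construction. Leaving out 1 library gave 4 to 10 genes higher on xylose in exponential growth (4 without exponential xylose C), 17 to 22 higher and 0 to 3 lower in starvation (17 without starved glucose B or starved xylose A), and 0 to 2 negative interactions. Rises and falls on starvation kept within 11 to 13 and 14 to 16 on glucose and 13 to 17 and 9 to 10 on xylose. Deviations of same-lettered libraries from their group means correlated at r = -0.12 to 0.17, so letters were not taken as pairs, and with the letter as a replicate block 21 genes were higher on xylose in starvation and 12 interactions were called, with 180 of 185 gene calls the same. No filter on low counts changed 1 of 185 gene calls. A search of names beside products again gave 39 genes. Depth limits the weak genes PHBOTO_002514, kre6_7, kre6_8, cts2_2 and exg1, and the exponential levels of PHBOTO_003185.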

Other observations

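Some wall genes carry locus numbers next or close to those of other wall or glucan assembly genes. These examples were picked after their values were seen, and position on a chromosome was not examined. The locus kre6_4 (PHBOTO_005738) is followed by rot1_4 (PHBOTO_005739), also named after a gene of beta-1,6-glucan synthesis. Between starved glucose and starved xylose their levels went from 152 ± 12.9 to 565 ± 44.6 CPM and from 167 ± 14.2 to 576 ± 22.6 CPM, differences of 1.90 ± 0.09 and 1.79 ± 0.08. The loci kre6_2 (PHBOTO_002065), kre6_6 (PHBOTO_002067), rot1_2 (PHBOTO_002068) and kre6_7 (PHBOTO_002069), with PHBOTO_002066, annotated as a mitochondrial elongation factor, between the first and second, did not share 1 pattern: on glucose starvation gave 3.07 ± 0.11, 1.33 ± 0.08, 0.28 ± 0.37 (adjusted p = 0.504) and -2.51 ± 0.51 in that order. The glucanosyltransferase gas1 (PHBOTO_001855) precedes the glucan synthase fks1 (PHBOTO_001856), and both fell in starvation on both sugars. The glucosidase exg1_4 (PHBOTO_006105) follows an exo-beta-1,3-glucanase (PHBOTO_006104), which rose by 1.57 ± 0.40 on glucose and 1.95 ± 0.39 on xylose. PHBOTO_006104 is weak, with 18 to 85 counts in a library and 0.561 to 4.32 CPM.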
